A study of Homo sapiens with 6 samples.

Results

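The DLX, MSX and MEOX genes encode homeodomain transcription factors, and 9 of them were followed here among the 62700 genes of the count table, namely DLX1 to DLX6, MSX1, MSX2 and MEOX1. They were chosen by symbol as families, after the difference in RNA counts between knockdown and control libraries was known for some of them, so that difference is given as a description and without a test. RNA was sequenced from KYSE510, an established cell line from a squamous carcinoma of the oesophagus, in 6 libraries. The 3 shControl libraries carry a control shRNA and have the genotype label WT, and the 3 shRNH1 libraries carry an shRNA against the ribonuclease that the labels name RNH1. The study made this knockdown as a model of induced R-loops, in which RNA pairs with DNA and leaves the other strand free. Whether the knockdown cells were a pool or 1 clone, and how long the shRNA had acted, was not known here.

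DLX genes are relatives of the fly gene Distal-less and lie in the genome as convergently transcribed pairs, and they pattern the branchial arches, limbs, forebrain, skin and placenta. MSX genes are classical targets of bone morphogenetic protein (BMP) signals in ectoderm, tooth and skull, and their proteins mostly repress transcription. MEOX1 is a mesoderm gene of somite development. Many genes of these families are held silent by Polycomb proteins in tissues that do not use them.

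RNASEH1, which encodes the ribonuclease that cuts RNA in RNA:DNA hybrids, had 1357, 1344 and 1015 counts in shControl and 251, 247 and 232 in shRNH1. This was a drop of -2.14 on the log2 scale (SE 0.116), with an adjusted p of 1.61e-13 in the quasi-likelihood test of edgeR. The gene whose approved symbol is RNH1, a ribonuclease inhibitor, differed by -0.19 on that scale (SE 0.112; adjusted p = 0.221 in that test). Library totals ran from 31394687 to 41103220 counts, and all 3 shControl totals lay above all 3 shRNH1 totals. Of 15 squamous epithelial genes, 15 were at a testable level, with TP63, the master regulator of stratified epithelium, at 53.2 CPM (counts scaled to library size) in shControl and 52.5 in shRNH1. TP63 does not stand for that list. At an adjusted p under 0.05 in the test of edgeR, 8 of the 15 rose and 4 fell, 80% against 27.6% of all genes. Leukocyte markers summed to 6.09 to 7.68 CPM over 10 genes in shControl and 8.18 to 10.4 in shRNH1, most of it from CSF1R.

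RefSeq promoter windows, from 250 bases before to 50 after the annotated start on GRCh38.p14, were matched for 5 of the 9 genes, DLX1, DLX2, DLX6, MSX1 and MSX2. The 4 of them that had counts are printed 5′ to 3′ on the gene's strand, because DLX1 and DLX2 are neighbours with unlike changes and MSX1 and MSX2 are the pair that barely moved. Capitals mark CCAAT on either strand (ATTGG on the other) and the homeodomain core TAATTA. DLX1 is at chr2:172085257-172085556 (plus strand), DLX2 at chr2:172102851-172103150 (minus strand), MSX1 at chr4:4859415-4859714 (plus strand) and MSX2 at chr5:174724332-174724631 (plus strand). The GENCODE gene DLX1, used for positions and exon lengths, begins at 172084740. The DLX1 window therefore lies inside that gene and not upstream of it.
DLX1: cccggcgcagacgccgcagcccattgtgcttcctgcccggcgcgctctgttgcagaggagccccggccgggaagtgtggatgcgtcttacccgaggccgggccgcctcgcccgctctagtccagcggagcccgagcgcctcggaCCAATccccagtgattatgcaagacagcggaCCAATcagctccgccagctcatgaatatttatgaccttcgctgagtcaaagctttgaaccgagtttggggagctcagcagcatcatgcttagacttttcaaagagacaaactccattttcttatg
DLX2: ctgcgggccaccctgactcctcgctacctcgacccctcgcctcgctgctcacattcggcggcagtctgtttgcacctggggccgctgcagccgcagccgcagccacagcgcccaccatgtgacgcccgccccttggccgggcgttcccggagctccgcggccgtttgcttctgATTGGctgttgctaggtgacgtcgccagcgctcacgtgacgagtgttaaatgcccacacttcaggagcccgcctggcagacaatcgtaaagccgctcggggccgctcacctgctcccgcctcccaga
MSX1: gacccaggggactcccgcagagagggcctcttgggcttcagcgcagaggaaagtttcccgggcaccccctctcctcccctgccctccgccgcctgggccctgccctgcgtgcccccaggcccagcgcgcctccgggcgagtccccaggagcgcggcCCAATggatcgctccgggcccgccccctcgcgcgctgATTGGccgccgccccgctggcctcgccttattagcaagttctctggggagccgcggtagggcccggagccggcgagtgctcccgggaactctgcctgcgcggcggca
MSX2: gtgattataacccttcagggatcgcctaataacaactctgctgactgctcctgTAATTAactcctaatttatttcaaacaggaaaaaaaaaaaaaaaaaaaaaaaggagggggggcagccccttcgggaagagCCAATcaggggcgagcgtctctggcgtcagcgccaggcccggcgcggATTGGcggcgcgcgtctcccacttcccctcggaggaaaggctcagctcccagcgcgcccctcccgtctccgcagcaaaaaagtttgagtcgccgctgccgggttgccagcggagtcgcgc

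All 5 windows, that of DLX6 included, held a CCAAT match, the letters bound by the general factor NF-Y, against 34.6% of the 35116 promoter windows in the table. DLX2 held 1 match and DLX1, DLX6, MSX1 and MSX2 held 2 each. The MSX2 window held 1 TAATTA, found in 4.84% of windows, and none of the 5 held TAATTG, which 7.38% of windows held on either strand. The TATA box letters TATAAA, searched on both strands, were also in none of the 5 and in 11.5% of windows. The palindrome GGCGCC was in the DLX6 window alone among the 5, at 2 places, and in 19.2% of all windows. These matches are letters in a window and do not show binding.

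GC content of the windows was 59.0% for DLX1, 67.7% for DLX2, 67.0% for DLX6, 74.7% for MSX1 and 57.0% for MSX2, against a median of 58.7% over all windows. The observed over expected number of CpG pairs was 0.887, 0.900, 0.894, 0.752 and 0.987 in the same order, against a median of 0.579, so all 5 lay above the middle of the table. GC skew, the excess of G over C on the gene's strand as a share of both, is a feature of sequence that forms R-loops. Over the window it was -0.08 for DLX1, -0.17 for DLX2, -0.12 for MSX1 and -0.04 for MSX2, all below the median of 0.0122, and 0.05 for DLX6, which had no counts. In the 50 bases after the start the order was another one, with -0.22 for DLX1, -0.27 for DLX2 and -0.08 for DLX6 below the median of 0.0625 and 0.08 for MSX1 and 0.125 for MSX2 above it. DLX2, the gene of these 5 that was higher in shRNH1, had the lowest skew over the window, where 10.4% of all windows were lower, and after the start, where 10.3% were. The other genes that were higher, DLX3, DLX4 and MEOX1, had no window here, so no relation of skew to change is read from DLX2.

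Of the 9 genes, 7 passed the filter on low counts, and DLX5 and DLX6 were listed at 0 in all 6 libraries. In 4 of the 7, DLX2, DLX3, DLX4 and MEOX1, every shRNH1 library lay above every shControl library in CPM. Among all 19682 genes tested, 21.4% had groups that did not overlap with shRNH1 higher, and 40.0% in either direction. In edgeR's quasi-likelihood test 27.6% of all genes had an adjusted p under 0.05, 15.3% with shRNH1 higher and 12.3% with shRNH1 lower. A rise of 1 or more on the log2 scale was seen in 3 of the 7, DLX3, DLX4 and MEOX1, and in 5.68% of all genes. Because this contrast was known when the families were chosen, nothing is read from these counts. Over all genes 3006 were higher and 2418 lower, 55.4% higher, and 73.9% were higher with library size alone, which moved the median log2 fold change from 0.016 to 0.127.

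**Figure D1:**
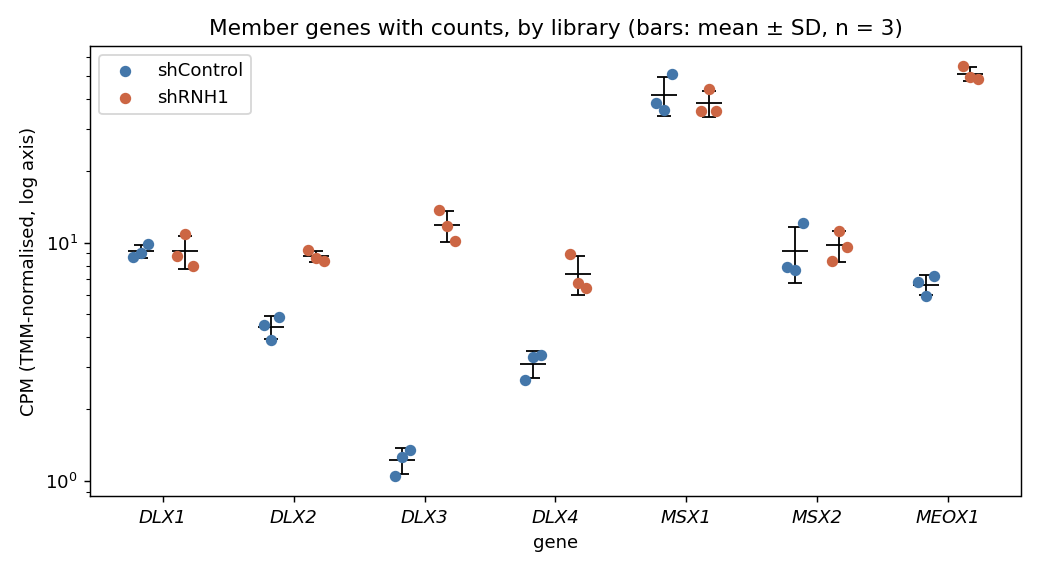
CPM of the 7 genes that passed the filter, in each library (log axis; points are libraries, bars are mean ± SD, n = 3 per group). The 3 shRNH1 points lie above the 3 shControl points for DLX2, DLX3, DLX4 and MEOX1, and the groups overlap for DLX1, MSX1 and MSX2.

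DLX3, needed for the placenta and for skin appendages, teeth and bone, showed the largest difference of the 9. Its CPM was 1.05, 1.26 and 1.36 in shControl replicates 1 to 3 and 13.7, 11.7 and 10.2 in shRNH1 replicates 1 to 3. The counts behind these values were 41, 52 and 50 against 463, 410 and 336. All 3 control libraries were low and close together, and the spread in the knockdown libraries was small beside the distance between the groups. The means of 1.22 ± 0.155 and 11.8 ± 1.74 CPM (SD, n = 3 each) gave a 9.67-fold difference, a log2 fold change of 3.27 (SE 0.172). By fold change it was number 30 of the 19682 genes tested. The gene (ENSG00000064195) lies on GRCh38 chromosome 17 from 49990005 to 49995224 on the minus strand.

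DLX4, a DLX gene best known from placenta and from blood and breast cancer cells, is the neighbour of DLX3, on chromosome 17 from 49968970 to 49974959 on the plus strand. It had 2.65, 3.31 and 3.37 CPM in shControl and 8.93, 6.78 and 6.46 CPM in shRNH1. The lowest knockdown library lay well above the highest control library. The fold difference was 2.38 (log2 1.25, SE 0.168), from 3.11 ± 0.401 to 7.39 ± 1.35 CPM (SD, n = 3 each). The starts of DLX3 and DLX4 are 26254 bases apart, and both genes were higher in shRNH1, to unequal extents.

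The ratio of the 2 genes within a library does not depend on how libraries are scaled. Per base of annotated exon, DLX3 over DLX4 was 0.534, 0.509 and 0.541 in shControl and 2.05, 2.31 and 2.12 in shRNH1, which is 4.09 times as high on average. DLX3 was thus the weaker gene of the pair in each control library and the stronger one in each knockdown library.

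DLX2 and DLX1 form the other pair with counts, on chromosome 2, and are known from forebrain interneurons and the upper jaw. DLX2 (172099439 to 172102900, minus strand) had 4.50, 3.92 and 4.86 CPM in shControl and 9.29, 8.57 and 8.40 in shRNH1. Its groups did not overlap, and the difference was 1.98-fold (log2 0.99, SE 0.142). DLX1 (172084740 to 172089677, plus strand) had 8.66, 9.07 and 9.82 CPM in shControl and 8.76, 10.8 and 8.002 in shRNH1. Its shRNH1 libraries spanned the whole range of the controls, and the log2 fold change was 0.003 (SE 0.133).

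The starts of DLX1 and DLX2 are 18160 bases apart. Per exon base, DLX2 over DLX1 was 0.639, 0.532 and 0.609 in shControl and 1.31, 0.975 and 1.29 in shRNH1, 2.01 times as high on average. Within each pair 1 gene changed by more than its neighbour, and of DLX1 and DLX2 just DLX2 had groups that did not overlap. DLX2-DT, the divergent transcript that starts next to DLX2, had 0 to 7 counts in a library. No annotated gene of GENCODE 29 overlaps DLX1, DLX2, DLX3, DLX4, MSX1, MSX2 or MEOX1, so their counts are not shared with an overlapping transcript of that annotation.

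**Figure D2:**
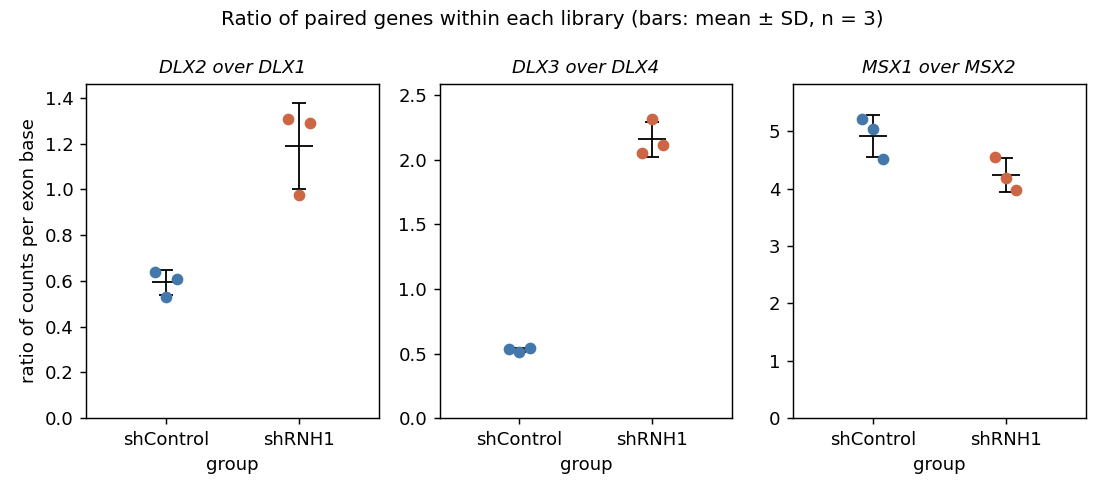
Ratio of counts per exon base between paired genes in each library (axes start at 0; points are libraries, bars are mean ± SD, n = 3). DLX2 over DLX1 and DLX3 over DLX4 are higher in every shRNH1 library than in any shControl library, while MSX1 over MSX2 overlaps between 4.52 and 4.56.

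DLX5 and DLX6 are the remaining pair, on chromosome 7 with starts 19402 bases apart, and drive bone and limb development. Both were listed at 0 in all 6 libraries, as was DLX6-AS1, the antisense RNA that covers the whole of DLX6. Whether the counting left such genes out was not known here. Their closest tested neighbours, SEM1 and SDHAF3, were read at 2.80 and 5.11 CPM in shControl and 2.80 and 6.75 in shRNH1. SDHAF3, the nearer of these neighbours, starts 91.6 kb from DLX5. Counts at that distance do not show whether reads over DLX5 and DLX6 were counted.

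MEOX1 (ENSG00000005102; chromosome 17 from 43640388 to 43661954, minus strand) had 6.81, 5.98 and 7.22 CPM in shControl and 54.7, 49.3 and 48.5 in shRNH1. Both groups were tight, and no library lay between them. The 7.63-fold difference (log2 2.93, SE 0.111), from 6.67 ± 0.633 to 50.8 ± 3.36 CPM (SD, n = 3 each), was number 39 of all genes tested. MEOX2, its paralog, which marks limb muscle and vessels, had 0 counts in shControl and 0 to 1 in a shRNH1 library. MEOX1 is on the same chromosome as DLX3, with starts 6333270 bases apart.

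MSX1, a BMP-responsive repressor of tooth and palate development, was the most abundant of the 9 genes in shControl. Its CPM was 38.3, 36.0 and 50.7 in shControl and 35.7, 43.9 and 35.6 in shRNH1. The groups overlapped, with a log2 fold change of -0.12 (SE 0.116). MSX2, its relative in skull and skin, had 7.89, 7.67 and 12.0 CPM in shControl and 8.37, 11.2 and 9.61 in shRNH1, again overlapping (log2 fold change 0.09, SE 0.154). shControl replicate 3 and shRNH1 replicate 2 were the highest of their groups for both MSX genes. MSX1 over MSX2, per exon base, was 5.20, 5.03 and 4.52 in shControl and 4.56, 4.19 and 3.97 in shRNH1.

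shControl replicate 3 held the highest CPM of its group for all 7 genes, and its normalisation factor (0.912) was the lowest of the 6. In shRNH1, replicate 1 was highest for DLX2, DLX3, DLX4 and MEOX1, the 4 genes that differed, and replicate 2 for DLX1, MSX1 and MSX2, the 3 that overlapped. With 3 libraries a group, no more is made of this order. Leaving out any 1 library moved the log2 fold change of DLX3 between 3.16 and 3.37, that of MEOX1 between 2.85 and 2.99, that of DLX4 between 1.09 and 1.34 and that of DLX2 between 0.89 and 1.06. DLX1, MSX1 and MSX2 have no stable direction, because leaving out libraries or other scalings put them between -0.13 and 0.12, between -0.22 and 0.05, and between -0.04 and 0.33.

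**Figure D3:**
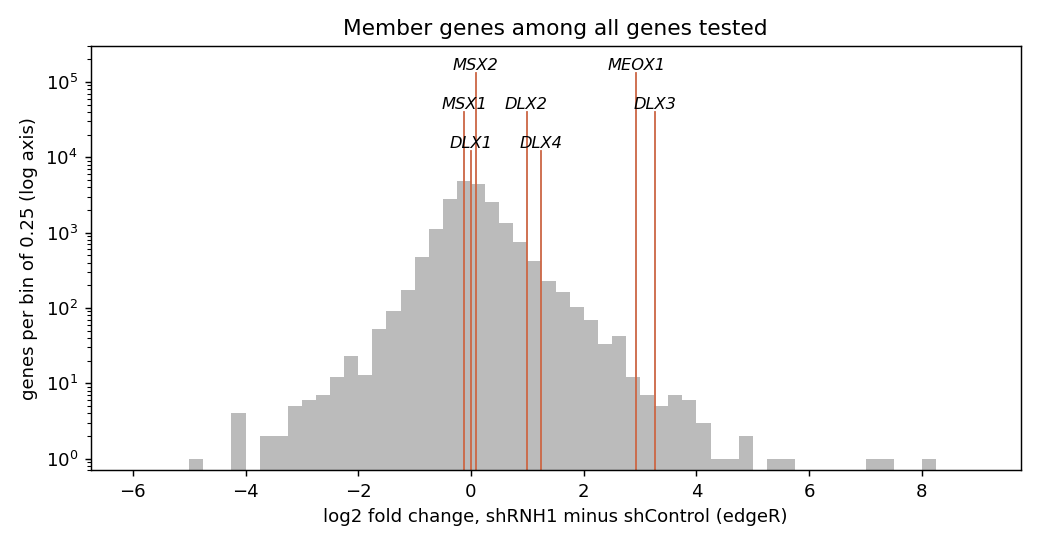
Distribution of log2 fold changes (shRNH1 minus shControl, edgeR) over the 19682 genes tested, with the number of genes per bin on a log axis and a vertical line at each of the 7 genes. DLX3 (3.27) and MEOX1 (2.93) lie in the far upper tail, DLX2 (0.99) and DLX4 (1.25) on the upper shoulder, and DLX1, MSX1 and MSX2 near the median of 0.016.

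Levels of different genes can be compared per exon length, as RPKM (CPM divided by exon length in kilobases). In shControl the order was MSX1 at 19.7 ± 3.72, MSX2 at 4.05 ± 1.08, DLX1 at 2.51 ± 0.162, MEOX1 at 2.46 ± 0.234, DLX2 at 1.49 ± 0.159, DLX4 at 0.853 ± 0.110 and DLX3 at 0.450 ± 0.0571 RPKM (SD, n = 3 each). Only the neighbours DLX1 and MEOX1 overlapped in that order, besides DLX5 and DLX6 at 0. In shRNH1 it was MEOX1 at 18.8 ± 1.24, MSX1 at 18.1 ± 2.25, DLX3 at 4.36 ± 0.641, MSX2 at 4.29 ± 0.628, DLX2 at 2.95 ± 0.159, DLX1 at 2.51 ± 0.399 and DLX4 at 2.03 ± 0.370 RPKM. There MEOX1 overlapped MSX1, DLX3 overlapped MSX2, and DLX2, DLX1 and DLX4 each overlapped the next, so DLX3 went from the lowest of the 7 to the level of MSX2 and MEOX1 to that of MSX1. In CPM, the 6 DLX genes together gave 16.9, 17.6 and 19.4 in shControl and 40.6, 37.8 and 33.0 in shRNH1, and the 9 genes together 75.5 ± 12.1 and 136 ± 8.25 (SD, n = 3 each).

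The genes most like each of the 7 over the 6 libraries were sought by the root mean square difference in log2 CPM centred on the shControl mean, which follows the size of the group difference. DLX3 was closest to MEOX1 (0.253), then to the nonmuscle myosin gene MYH14 (0.311) and the bHLH factor gene ATOH8 (0.326). MEOX1 was closest to the TNF receptor family gene TNFRSF18 (0.152), then DLX3 and RPRM (0.261), known as a cell cycle arrest gene. The genes closest to DLX2 were TMEM121 (0.0508), BLVRB (0.0628) and TMPRSS3 (0.0663), and those closest to DLX4 were ENSG00000277117 (0.0803), CORO2B (0.0899) and PADI3 (0.108), an enzyme gene of hair and skin cornification. Around the genes that barely moved lay many genes that barely moved, such as TNRC6C (0.0291), PCNT (0.0365) and ENPP1 (0.0404) for DLX1. CBX2 (0.0229), ZNF668 (0.0244) and SELENOO (0.0292) lay closest to MSX1, and RELL2 (0.0330), MNX1 (0.0569) and STARD10 (0.0618) closest to MSX2.

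Next to the members, the 3 nearest tested genes on each side gave 36 genes besides the members themselves. By the edgeR test, Benjamini-Hochberg adjusted 6 of these rose and 6 fell, 33.3% against 27.6% of all genes, with a median log2 fold change of -0.003. Some of them are near the floor of the filter on low counts. A gene that passes it only through the group where it is high can be called in that direction alone. Beside DLX3 and DLX4, the integrin gene ITGA3 (-0.36; adjusted p = 0.00951) and the noncoding ENSG00000276851 (-1.41; adjusted p = 0.0112) fell. Between them and the pair, PICART1 had a log2 fold change of 0.10 (adjusted p = 0.705). The integrin gene ITGA6 (-0.42; adjusted p = 7.33e-04) fell and the kinase gene PDK1 (0.42; adjusted p = 0.00393) rose beside DLX2, 324 and 452 kb away. ITGA3 did not pass with an offset for expression level (-0.15, adjusted p = 0.305) or without shRNH1 replicate 3 (-0.31, adjusted p = 0.0892).

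MEOX1 lay between genes that went opposite ways. Upstream of its start, LINC02594, 18.3 kb off, rose from 0.154 ± 0.0220 to 0.510 ± 0.0947 CPM and SOST, 96.8 kb off, from 0.503 ± 0.143 to 1.77 ± 0.0478 CPM (SD, n = 3 each). SOST encodes sclerostin, a secreted inhibitor of Wnt signals in bone. Their log2 fold changes were 1.71 (adjusted p = 0.0111) and 1.81 (adjusted p = 7.23e-05), while DUSP3, the next gene, had -0.05 (adjusted p = 0.703; edgeR's test for all 3). Downstream, ETV4 (-0.82; adjusted p = 1.95e-07), an ETS factor gene that follows FGF and ERK signals, and the helicase gene DHX8 (-0.29; adjusted p = 0.0249) fell. DHX8 lost its call in 6 alternatives, among them library size alone (-0.17, adjusted p = 0.145) and leaving out shControl replicate 1 (adjusted p = 0.123), shRNH1 replicate 2 (adjusted p = 0.108) or shRNH1 replicate 3 (adjusted p = 0.0909). LINC02594 lost it when shControl replicate 1 (1.596, adjusted p = 0.0625) or shRNH1 replicate 1 (1.55, adjusted p = 0.0809) was left out of the edgeR fit. LINC02594 passed the filter on low counts through shRNH1 alone, so it could only be called higher.

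Around MSX2 the noncoding LINC01411 (1.68; adjusted p = 3.06e-09) and the pseudogene GAPDHP71 (1.501; adjusted p = 0.0300) rose and SFXN1 (-0.38; adjusted p = 0.00308), a mitochondrial serine carrier gene, fell, although MSX2 itself barely moved. CRMP1 (0.57; adjusted p = 3.24e-04) rose on the far side of MSX1, 1033 kb away. GAPDHP71 is a copy of GAPDH, so counting could split reads between the copies and its values are uncertain. GAPDHP71 was also near the floor of the filter, at 0.188 CPM in shControl and 0.537 in shRNH1. It passed that filter on low counts through shRNH1, so it could only be called higher. Its call was lost when shControl replicate 1 (1.13, adjusted p = 0.171) or any shRNH1 replicate was left out (adjusted p = 0.0511, adjusted p = 0.146 and adjusted p = 0.0703 for replicates 1 to 3), and by DESeq2 (1.49, adjusted p = 0.0863). ENSG00000276851 did not pass without shRNH1 replicate 3 (-1.23, adjusted p = 0.0542). Of the 12 tested genes placed around MSX1, DLX5 and DLX6, CRMP1 alone passed.

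**Figure D4:**
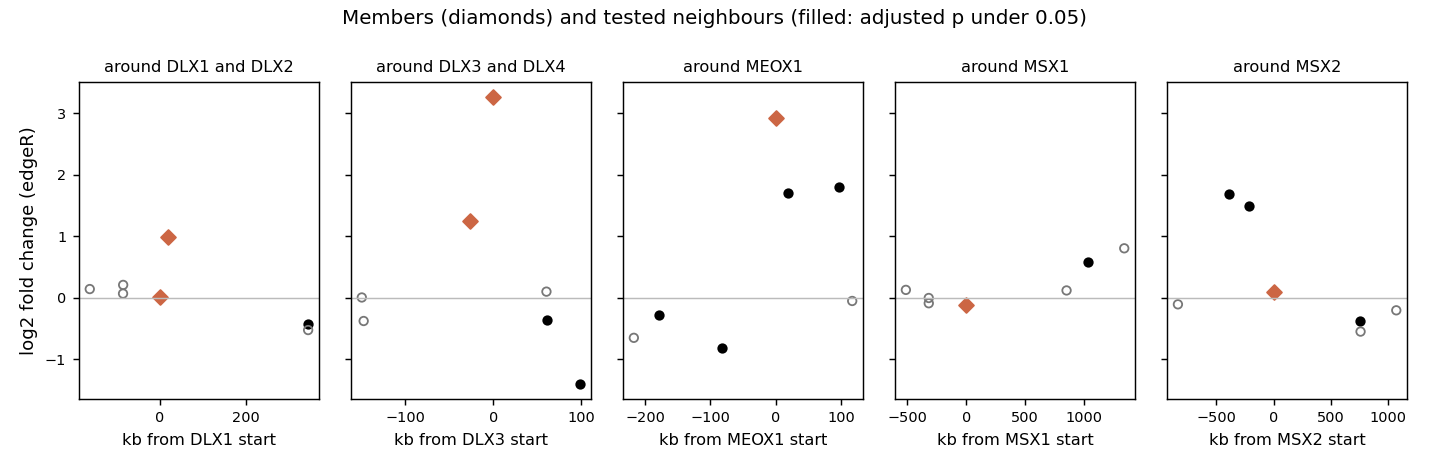
Log2 fold change (edgeR) of the 3 nearest tested genes on each side of DLX1, DLX3, MEOX1, MSX1 and MSX2 (filled circles, adjusted p under 0.05), against the distance of their starts in kb. Members, also DLX2 and DLX4 among those nearest genes, are diamonds. The genes around DLX5 and DLX6, and those near only DLX2 or DLX4, such as PDK1, are not plotted. DLX3 (3.27) and MEOX1 (2.93) lie above all their plotted neighbours, and the nearest risen genes beside MEOX1 reach 1.71 and 1.81.

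BMP signalling is the pathway most tied to these families, and 36 of its genes were listed. Of 30 tested, 12 rose and 4 fell by edgeR's quasi-likelihood test, 53.3% against 27.6% of all genes, with a median log2 fold change of 0.26 against 0.016. This list and those below were chosen with earlier results of these data known. Their shares and medians are therefore a description, and nothing is read from the distance to all genes. The ligand gene GDF6 rose from 0.796 ± 0.0873 to 4.996 ± 1.22 CPM (log2 2.65; adjusted p = 1.57e-09), and ID2, a classical target, from 4.43 ± 0.258 to 15.3 ± 0.930 CPM (1.79; adjusted p = 3.68e-11). SMAD9 (1.23; adjusted p = 2.27e-07), which carries the signal, and SMAD6 (1.15; adjusted p = 5.02e-09), which blocks it, rose too (SD, n = 3 each; edgeR, Benjamini-Hochberg adjusted).

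Split by role, a division made after the values were seen, 2 of 6 tested ligand genes, 1 of 7 receptor genes and 3 of 3 tested ID genes rose. Among SMADs that carry the signal 1 of 4 rose and 1 fell, among the tested secreted antagonists 2 of 3 rose and 1 fell, and among the other inhibitors 3 of 7 rose and 2 fell. Among all genes tested 15.3% were higher and 12.3% lower, and with so few genes per role nothing is read from these counts. Genes that carry the pathway and genes that block it were both among those that rose. The list does not say which of them acts on DLX or MSX genes.

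Other homeobox genes of the same ANTP class outside the HOX clusters had 4 higher and 4 lower of 19 tested, of 52 listed, with 17 at 0 in every library. BARX2, a gene of oral and oesophageal epithelium, rose from 16.2 ± 2.23 to 26.8 ± 2.03 CPM (log2 0.72; adjusted p = 1.66e-05), and NKX6-1, known from pancreas and spinal cord, from 1.28 ± 0.103 to 2.75 ± 0.0392 CPM (1.11; adjusted p = 5.08e-04). LBX1, a muscle and spinal cord gene, fell from 4.89 ± 1.68 to 1.63 ± 0.184 CPM (-1.57; adjusted p = 6.87e-06) and GBX2, a midbrain and hindbrain gene, from 8.67 ± 1.58 to 4.51 ± 0.980 CPM (-0.94; adjusted p = 8.29e-05; SD, n = 3 each, edgeR, Benjamini-Hochberg adjusted). The listed genes, a part of the class, therefore had calls in both directions, 42.1% of the 19 tested against 27.6% of all genes, with a median of 0.22. Where 3 libraries had to reach 1 CPM, 5 were called.

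Homeobox genes of other classes had 13 higher and 10 lower of 59 tested (38.98%, against 27.6% of all genes), with a median of 0.05. The 4 with the smallest p all rose, namely TSHZ2 (1.06; adjusted p = 6.33e-08), ALX4 (1.01; adjusted p = 1.27e-07), a craniofacial gene, MEIS3 (1.25; adjusted p = 2.59e-07), a HOX cofactor gene, and LHX2 (0.88; adjusted p = 1.76e-06; edgeR, Benjamini-Hochberg adjusted). The 4 were picked by p and not by fold change, and DLX3 and MEOX1 were chosen with this contrast known. Fold changes of the 4 are therefore not set against those of DLX3 and MEOX1.

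Polycomb and H3K27 demethylase genes had 7 lower and 1 higher of 34 tested (23.5%, against 27.6% of all genes), with a median of -0.09. PHF19, an accessory subunit that guides the H3K27 methyltransferase, fell from 218 ± 18.3 to 146 ± 8.46 CPM (-0.58; adjusted p = 3.38e-05), and KDM6B, a demethylase that removes this mark, from 102 ± 11.9 to 65.5 ± 7.26 CPM (-0.64; adjusted p = 2.73e-05). PCGF1 (-0.49; adjusted p = 9.61e-04) fell and CBX7 (0.69; adjusted p = 1.86e-05), a reader of the mark, rose (SD, n = 3 each; edgeR, Benjamini-Hochberg adjusted). Without shRNH1 replicate 3 the number called was 5.

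**Figure D5:**
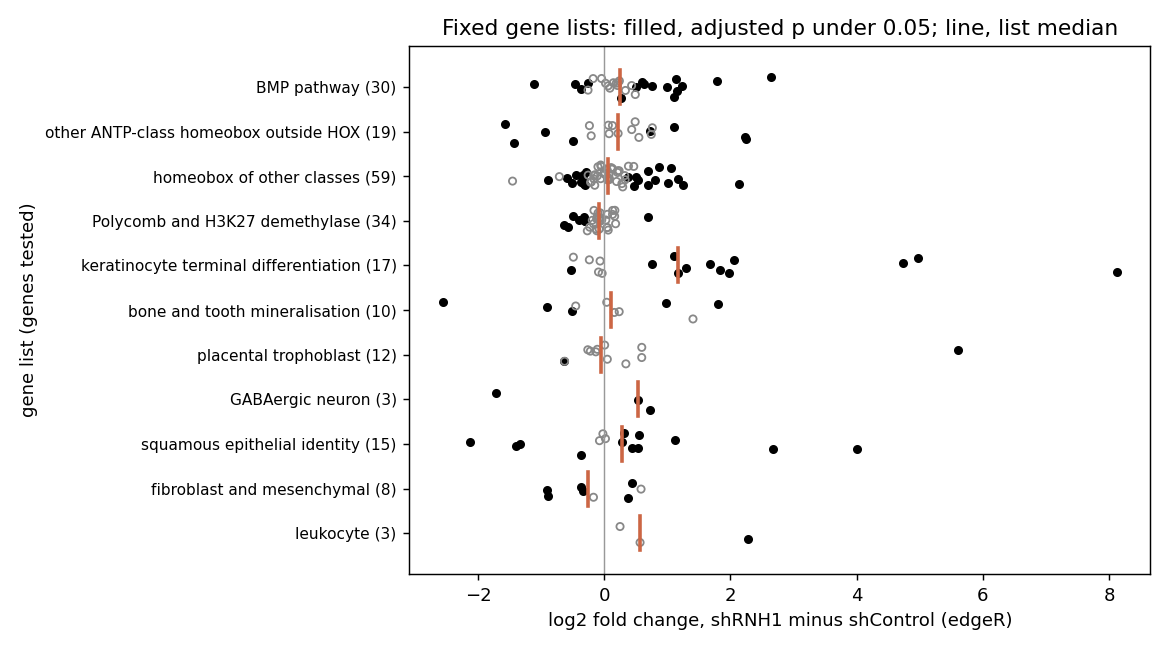
Log2 fold changes (edgeR) of the tested genes of each list (filled circles, adjusted p under 0.05; open circles, not past it; vertical line, list median). Over the tested genes alone, the plotted medians run from -0.26 for the fibroblast list to 1.17 for the keratinocyte differentiation list.

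Lists for tissues in which these factors act were read next. Keratinocyte terminal differentiation genes, some of which DLX3 is known to regulate in skin, had 11 higher and 1 lower of 17 tested, of 33 listed. The calls were 70.6% of the genes tested, against 27.6% of all genes, with a median of 1.17, also with CASP14 at its lower bound. Some of them passed the filter only through shRNH1 and could only be higher. Where 3 libraries had to reach 1 CPM, 7 were higher and 1 lower of 12 tested, with a median of 0.93. KRT13, the keratin of moist stratified epithelium, rose from 60.9 ± 8.94 to 149 ± 5.86 CPM (1.29; adjusted p = 2.07e-10) and PRDM1, a regulator of terminal differentiation, from 2.08 ± 0.439 to 8.19 ± 0.798 CPM (1.98; adjusted p = 1.57e-09). CASP14, the caspase of cornified cells, had 0 counts in each shControl library and 28, 40 and 29 in shRNH1, at least 12.3-fold higher against a floor of 3 counts per library. KLK5 had 0, 1 and 1 counts against 18, 16 and 21 (SD, n = 3 each; edgeR, Benjamini-Hochberg adjusted).

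LORICRIN and IVL were listed at 0 in all 6 libraries, with the limit given for DLX5 and DLX6, and 16 of the 33 genes stayed under the filter. Squamous identity genes went both ways, with 8 higher and 4 lower of 15 (80%, against 27.6% of all genes). Named next are the 4 with the smallest adjusted p, most of which fell although most of the called genes rose. KRT6A (-2.13; adjusted p = 8.33e-14), KRT5 (-1.33; adjusted p = 2.35e-10) and KRT14 (-1.40; adjusted p = 5.69e-09), keratins of basal and activated cells, fell, and SOX2 (2.68; adjusted p = 1.82e-09) rose (edgeR, Benjamini-Hochberg adjusted). Paralogs can share reads of such keratins, near-identical ones in the case of KRT6A.

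Bone and tooth genes, where DLX5, MSX2 and DLX3 act, had 2 higher and 3 lower of 10 tested (50%, against 27.6% of all genes). RUNX2 (-0.91; adjusted p = 1.09e-06), the main bone regulator, and SPARC (-2.55; adjusted p = 1.51e-16) fell, and COL1A1 (0.98; adjusted p = 1.88e-08) and SOST rose (edgeR, Benjamini-Hochberg adjusted). In the placental list, where DLX3 and DLX4 act, 1 rose and 1 fell of 12 tested, below the 27.6% of all genes. CGA, the hormone subunit that DLX3 can activate in trophoblast, had 2, 0 and 1 counts in shControl and 46, 45 and 53 in shRNH1 (adjusted p = 3.09e-08, same test), and TEAD4 fell (-0.64; adjusted p = 8.13e-06, same test). CGA passed the filter on low counts through shRNH1 alone, so it could only be called higher.

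Interneuron markers, which follow DLX1 and DLX2 in the forebrain, were mostly at or near 0, with 3 of 15 tested. All 3 were called, against 27.6% of all genes. GAD2, SLC32A1 and SST were listed at 0 in all libraries, with the limit given for DLX5 and DLX6. CALB2 fell (-1.72; adjusted p = 2.27e-12), and SP8 (0.72; adjusted p = 5.88e-05) and LHX6 (0.54; adjusted p = 0.0186) rose (edgeR, Benjamini-Hochberg adjusted). LHX6 did not pass with an offset for expression level (0.38, adjusted p = 0.103) or leaving out shControl replicate 3 (adjusted p = 0.0567) or shRNH1 replicate 1 (adjusted p = 0.0707; same test). Fibroblast and mesenchymal genes, of the lineage where MEOX1 is known, had 2 higher and 4 lower of 8 tested (75%, against 27.6% of all genes). Their summed level was 438 to 485 CPM in shControl and 370 to 428 in shRNH1. DCN, FAP and CDH11 were listed at 0 in all 6 libraries, with the same limit. The part of fibroblast or mesenchymal cells in the MEOX1 difference was not tested. VIM (-0.38; adjusted p = 0.00589), PDGFRB (-0.91; adjusted p = 0.00103) and CDH2 (-0.88; adjusted p = 5.61e-07) fell and FN1 (0.38; adjusted p = 0.00263) rose, VIM not with an offset for expression level (-0.25, adjusted p = 0.0737; same test). Among leukocyte markers ITGAM passed, 1 of 3 tested (33.3%, against 27.6% of all genes). It had 4, 7 and 7 counts in shControl and 24, 24 and 29 in shRNH1. ITGAM passed the filter on low counts through shRNH1 alone, so it could only be called higher. In bulk RNA, fewer cells of a type and less RNA per cell cannot be told apart.

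The 6 DLX and 2 MSX genes have short gene bodies. They span 3462 to 6361 bases, shorter than at least 71.5% of tested genes, against a median of 19600 bases, and MEOX1 spans 21567.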

How the data were processed

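Gene expression was measured by poly(A) RNA sequencing. The authors deposited raw counts per Ensembl gene ID, whole numbers without normalisation. The submitters' processing notes name GRCh38 and the tools HISAT2, StringTie and DESeq2. Tool versions, annotation, read counter and use of strand were not known here, so antisense reads could not be told apart.

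A name was found for 62700 of 62700 IDs, which for some only repeats the ID. Positions, exon lengths and overlaps came from GENCODE 29 on GRCh38, which held 58207 of them. Promoter windows came from RefSeq on GRCh38.p14, and windows for DLX3, DLX4, DLX5 and MEOX1 were not analysed here.

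edgeR 4.0.16 (R 4.3.3) was fitted to all 6 libraries (TMM, filterByExpr by group, quasi-likelihood test, Benjamini-Hochberg adjustment over 19682 genes, threshold 0.05, no covariate), and the fit was tested on simulated data. CPM use TMM library sizes, and SEs were derived from the F statistic. The labels name biological replicates and do not describe separate cultures. The p-values therefore reflect the spread of these libraries, which may be technical. Libraries of one group were not copies of each other (chi-square of 6.47 to 21.1 per gene).

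The members and the 11 lists were chosen with earlier results of these data known. Named were the members, RNASEH1, RNH1, up to 4 called genes with the smallest adjusted p per list, called neighbours and the 3 nearest patterns per member. A gene outside this rule is given as a check of a list or was chosen after its values were seen. Alternatives were DESeq2 size factors, library size alone, an offset for expression level (robust spline of 5 degrees of freedom, MASS 7.3.60.0.1), DESeq2 1.42.0, limma-voom (limma 3.58.1), no filter, a stricter filter, a replicate block, another prior count and each library left out.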

Additional observations from a re-analysis of the deposited data

How the results depend on the processing

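With 19682 genes tested, 2336 to 2996 genes were higher and 1814 to 2315 lower when 1 library was left out, and 1433 were lower with library size alone. Over the 14 alternatives DLX3 stayed between 3.14 and 3.38, MEOX1 between 2.85 and 3.05, DLX4 between 1.09 and 1.36 and DLX2 between 0.85 and 1.0999 on the log2 scale, the low end of DLX2 being the offset for expression level, and a prior count of 0.5 in place of 2 changed no direction. Other counts moved by over 1.5 times in few cases. The ANTP-class list had 5 calls with the stricter filter, which tests fewer genes, the placental list 4 with library size alone, and the leukocyte list 3 with no filter, 0 with the stricter filter, where its low genes are not tested, and 2 by DESeq2. The cause of the others was not tested. Leaving out 1 library gave 5 to 8 calls in the Polycomb list, the 5 without shRNH1 replicate 3. Of 51 named genes with a test, 44 kept their direction and side of the threshold in every alternative that gave them a value, and DHX8, ENSG00000276851, GAPDHP71, ITGA3, LHX6, LINC02594 and VIM did not. The stricter filter gave no value for 6 of the 51, namely CASP14, ENSG00000276851, GAPDHP71, ITGAM, KLK5 and LINC02594.

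Same-numbered libraries did not deviate together (correlations 0.0454, 0.0563 and -0.0489). Whether they shared a culture, day or batch was not known here. With the replicate block 2938 genes were higher and 2156 lower, and DHX8 lost its call (-0.29, adjusted p = 0.0582, edgeR's test). Members with few counts, such as DLX3 in shControl, have the widest counting error, and no difference could be computed for DLX5 and DLX6, listed at 0.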

Other observations

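Some homeobox genes at the edge of detection also rose. They were chosen after their values were seen. A gene that passed the filter on low counts only through shRNH1 could only be called higher. EN1, a limb and midbrain gene, went from 0.104 to 0.501 CPM (log2 2.25), NKX3-2, a stomach and cartilage gene, from 0.194 to 0.936 CPM (2.24), and ONECUT3 from 0.520 to 2.29 CPM (2.13). Their adjusted p were 0.00249, 5.25e-04 and 8.14e-06 (the edgeR test, Benjamini-Hochberg adjusted). In the opposite direction, BARHL1, a neural gene, fell from 1.298 to 0.478 CPM (-1.43; adjusted p = 0.00287, same test), and IRX2, an epithelial patterning gene, fell by a log2 fold change of -0.89 (adjusted p = 4.18e-05, same test). OVOL1, a repressor that acts in late keratinocyte differentiation, had 1, 0 and 0 counts in shControl and 14, 12 and 12 in shRNH1.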
